A study of Mus musculus with 12 samples.

Results

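The comparison described here set lungs of Mek1flox/flox;Mek2-/-;Dermo1+/Cre mouse embryos against lungs of Dermo1+/Cre embryos, gene by gene, with the arrays taken by their genotype label. It used 8 of the 12 arrays of the study, 4 of each genotype. Of 16593 named genes on the array, 8311 were above background (4 or more of the 12 arrays with a detection p under 0.01) and entered the test. The double mutant embryos carried 2 floxed Map2k1 (Mek1) alleles, the label Mek2-/- for Map2k2 in all cells, and Cre recombinase in the Dermo1 (Twist2) locus. The control embryos carried the same Cre allele with no Mek mutation. The other 4 arrays held Mek1+/flox;Mek2-/-;Dermo1+/Cre lungs, called here 1 Mek1 allele. Background strain (129/Sv), stage (E15.5), tissue and the Cre allele, which takes the place of 1 Twist2 copy, were shared by every embryo. No control carried floxed Map2k1 without Cre or lacked Map2k2 alone. Nothing in the labels tells single lungs from pools, so p-values measure the spread between these specimens, which may be technical.

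MEK1 and MEK2 are the kinases that phosphorylate and activate ERK downstream of growth factor receptors and RAF. Dermo1-Cre recombines floxed alleles in embryonic mesenchyme, so the epithelium of a double mutant lung lacks MEK2 while its floxed Map2k1 lies outside the Cre domain. At this stage the lung is a branching epithelial tree in a mesenchyme that supplies FGF, BMP, Hedgehog and Wnt signals, and the proximal airways begin to form club and multiciliated cells. The RNA came from whole lung, where fewer cells of a type and less RNA per cell cannot be told apart.

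Values are log2 intensities and changes are log2 differences, double mutant minus control, ± SE. Map2k2 measured 10.94, 11.14, 10.62 and 10.71 in double mutants, against 11.64, 11.48, 11.60 and 11.66 in controls, with no overlap. The change was -0.74 ± 0.12, 0.598 of the control level, and the probe stayed above background on 4 of 4 double mutant arrays, so it shows a lower transcript level but not its absence; a dim second probe gave -0.81. Map2k1 was above background on none of the 12 arrays (0 of 4 in each group), so the Mek1 deletion was not checked. Lung markers were present: Sftpc, surfactant protein C, ran from 12.26 to 12.94 in double mutants and from 11.86 to 12.78 in controls. Arrays had 10467 to 11878 probes above background. Raw upper quartiles were 268.5 to 306.4 on double mutant arrays, and 390.1 and 388.3 on control replicates 2 and 3 against 261.3 and 300.6 on the other controls. A Y-linked signal was taken as the mean of those probes of Ddx3y, Eif2s3y, Kdm5d and Uty that were above background. It was high on double mutant replicates 2 and 4 and control replicate 3, between 7.16 and 7.48. On the other 5 arrays it lay between 4.28 and 5.10. The tested genes held 1 gene of the Y chromosome.

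Most genes moved little. The median change over the 8311 genes was -0.0036, and the middle 95% of changes lay between -0.48 and 0.53. The change was smaller than 1.5-fold for 97.0% of genes, and for 72.1% the whole 95% interval lay within 1.5-fold. Of all genes, 251 (3.02%) passed an adjusted p of 0.05, 158 (1.9%) higher and 93 (1.12%) lower. Of these, 87 belonged to at least 1 of 69 lists of pathway and cell type genes and 164 to none. The genes past the threshold had a median change of 0.66 when higher and -0.61 when lower, and the smallest was 0.32 in size. The 4 double mutant and 4 control values did not overlap for 13.7% of all genes, 7.42% higher and 6.28% lower. Omitting both bright control arrays left 10 genes past the threshold, with 2 controls and a median SE of 0.16 in place of 0.13. Under that omission and every other alternative, 0 of 125 named genes that had passed changed sign. This was largely fixed in advance, since 250 of the 251 had groups that did not overlap. Leaving out arrays cannot reverse such a difference, so the 0 is no support for the calls.

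The lists held 1214 measured genes, of which 7.17% passed, against 3.02% of all genes. That share of all genes is the one to set beside each count of calls below. Members of 43 lists passed and of 26 did not. Genes of multiciliated cells and club cells gave 11 and 6 rises. Of 7 detoxification rises, Cbr2, Cyp2f2, Cyp2s1 and Gsto1 are club cell genes too. There were 5 rises among histone genes, 4 among p53 targets, and 3 each in the mesothelial, vessel, macrophage, glucocorticoid and mast cell, granulocyte and platelet lists. Replication and mitosis genes lay below controls as lists, with few passing singly. In the lists of lung mesenchyme regulators, smooth muscle, cartilage, collagens and elastic fibres, BMP and TGF-beta, Hedgehog, Hox, IGF and ribosome genes, 0 members passed.

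**Figure D1:**
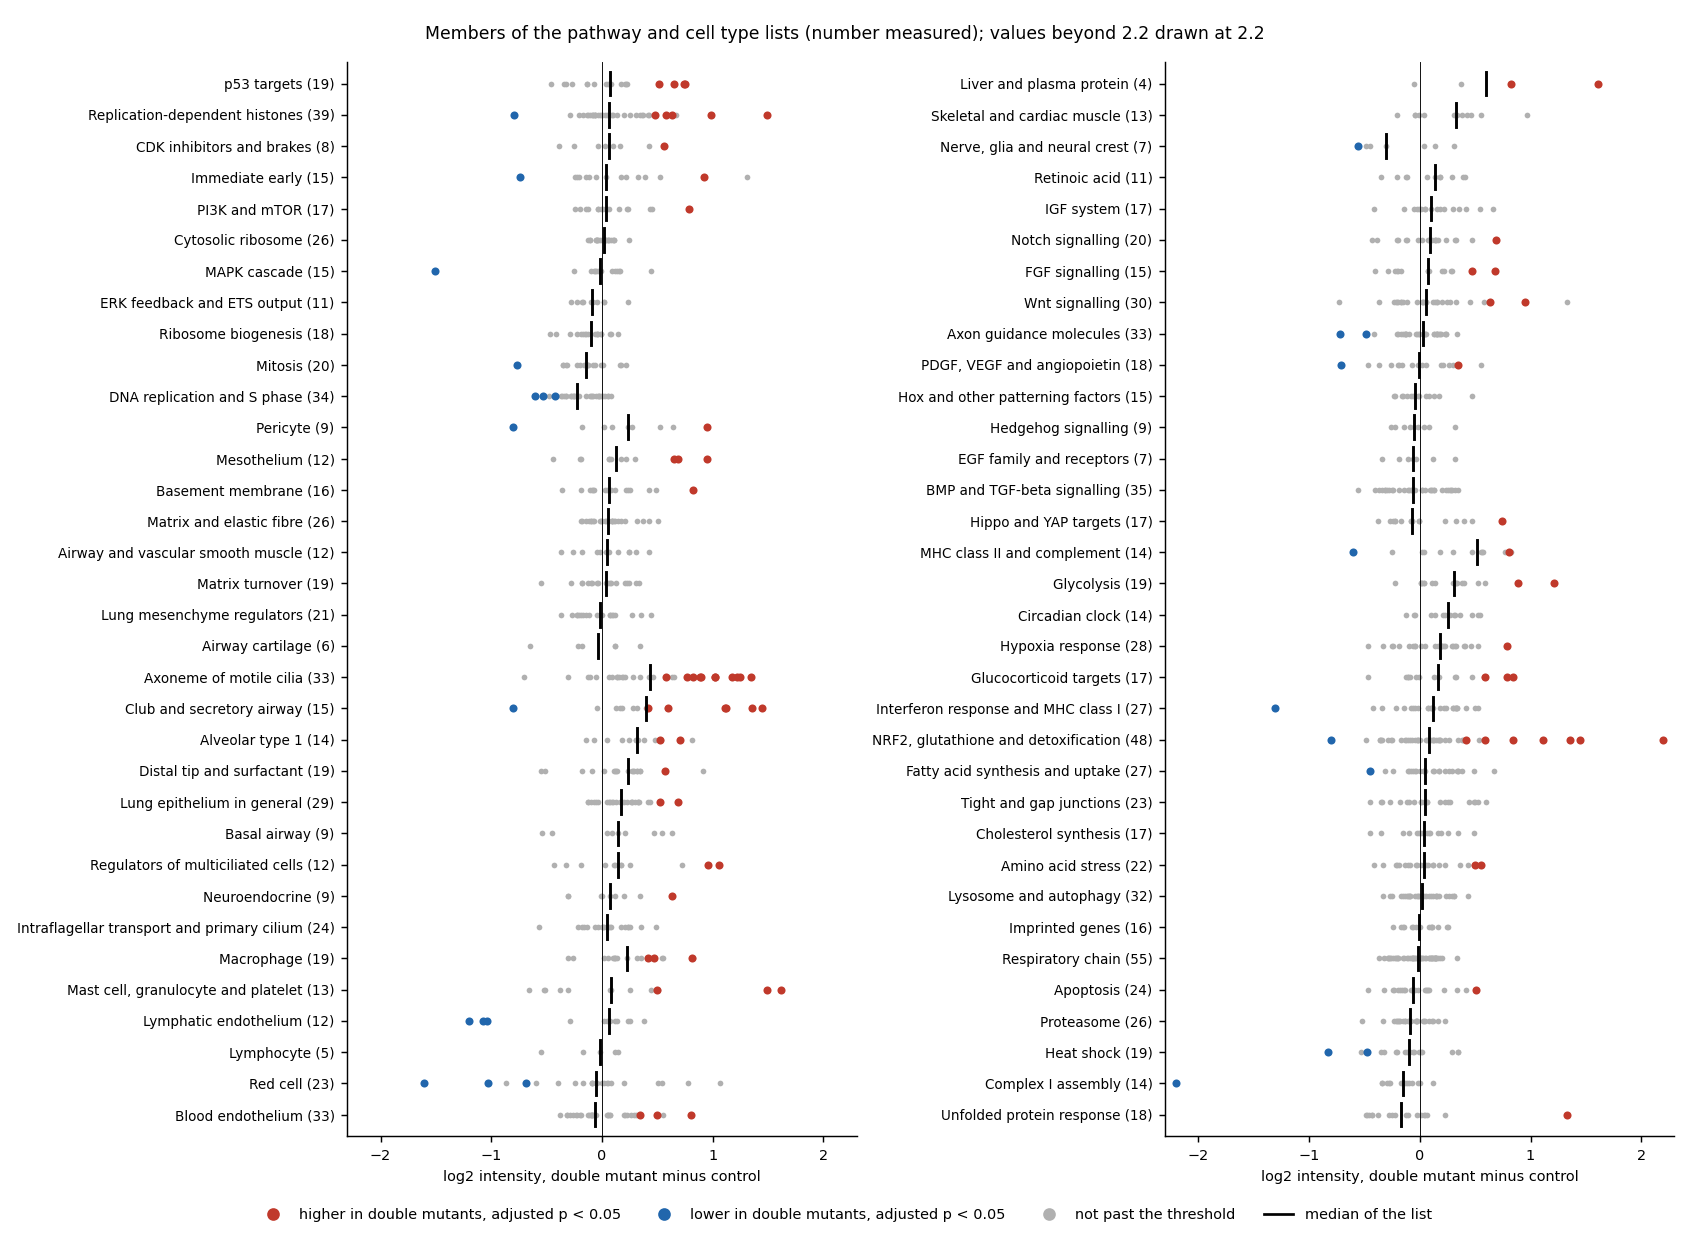
Change of each measured member of the gene lists (x axis, log2 intensity, double mutant minus control), with lists ordered by area and by median. Red points passed the threshold as higher, blue as lower, grey did not pass, and black bars mark the medians: 0.44 for the axoneme list, 0.39 for club and secretory genes and -0.22 for replication genes, with most other lists near 0.

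Genes of the ciliary axoneme, the microtubule and dynein core of motile cilia, were the list with most calls. Of 101 listed genes 33 were measured, and 11 of these rose and 0 fell, where 3.02% of all genes passed. The change was positive in 28 of 33, with a median of 0.44. In double mutants 14 of 33 were higher without overlap, against 7.42% of all genes. The detection filter let a gene enter through the double mutant arrays alone, as Pifo could, with no control array above background. The share called, these counts and the list level below include such members, so they are descriptions and no support for a rise. Taken as the median over members on each array relative to the control mean, the list lay between 0.30 and 0.59 on double mutant arrays, between -0.20 and 0.16 with 1 Mek1 allele, and between -0.11 and 0.10 on control arrays.

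Dnali1, a light intermediate chain of inner-arm dynein, measured 5.94, 6.26, 6.35 and 6.80 in double mutants, against 4.72, 5.43, 4.89 and 4.94 in controls. All double mutant values lay above all controls, and the change was 1.34 ± 0.22 (adjusted p = 0.00755), with 1 of 4 control arrays above background. 1110017D15Rik measured 7.40, 7.43, 6.94 and 7.43 in double mutants, against 6.18, 6.36, 6.12 and 5.65 in controls, a 2.33-fold rise (1.22 ± 0.20, adjusted p = 0.00755). Its second probe gave 1.24.

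Pifo, a gene of cilium formation, was above background on 4 of 4 double mutant arrays (5.58 to 6.08) and 0 of 4 control arrays (4.66 to 4.98), a rise of at least 1.42-fold (adjusted p = 0.00944). Such a bound sets the brighter group against the lowest signal above background on the dimmer group's arrays, or the probe's own signal where higher. The dynein assembly factors Dnaaf1 and Dnaaf3 rose by 0.89 ± 0.18 and 0.77 ± 0.17, and Ccdc114, of the docking complex of outer-arm dynein, by 0.58 ± 0.13. For these 3 genes, 3 of 4 control arrays were above background. Also past the threshold were 1700016K19Rik (0.89), Riiad1 (0.82), the tektin Tekt1 (1.02), Spag6l (1.17) and the radial spoke gene Rsph1 (1.25).

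The axoneme genes were not uniform. Dynlrb2, a dynein light chain, averaged 8.85 ± 0.62 in double mutants and 7.61 ± 0.34 in controls (SD, n = 4 each), a change of 1.24 ± 0.31 that did not pass the threshold (adjusted p = 0.0501), with double mutant replicate 1 inside the control range. Drc3, of the nexin-dynein regulatory complex, changed by 0.65 (adjusted p = 0.0767) and the assembly factor Zmynd10 by 0.79 (adjusted p = 0.151). Wdr78, an axonemal dynein gene, ran from 6.41 to 7.29 in double mutants and from 7.02 to 7.69 in controls (-0.71 ± 0.20, adjusted p = 0.0717), the lowest of the list. The tubulins Tubb4b and Tuba1a changed by 0.06 and -0.05.

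Among 12 measured regulators of multiciliated cells, 2 rose. Ccno, cyclin O, which acts in the amplification of centrioles, measured 9.17, 9.33, 8.88 and 9.46 in double mutants, against 8.31, 8.23, 8.30 and 8.18 in controls (0.96 ± 0.17, adjusted p = 0.00965). Mcidas, the coregulator that starts the multiciliated programme, ran from 6.25 to 6.97 in double mutants and from 5.27 to 5.86 in controls (1.06 ± 0.22, adjusted p = 0.0241). The groups of both genes did not overlap. Foxn4, a forkhead factor of multiciliated cells, changed by 0.72 (adjusted p = 0.0752), and Foxj1, the forkhead factor of motile cilia, by 0.11 with overlapping groups (5.30 to 5.75 in double mutants, 5.15 to 5.71 in controls). E2f4 changed by -0.44 and Rfx2 by 0.17, neither past the threshold. Of 24 measured genes of intraflagellar transport and the primary cilium, which most cell types carry, 0 passed and the median change was 0.05.

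Side by side, the 1 Mek1 allele lungs, set against the same controls, gave changes of 0.33 for Dnali1, 0.35 for 1110017D15Rik, 0.07 for Pifo, 0.06 for Ccno and -0.04 for Mcidas, against 0.72 for Dnaaf3. Of the 11 axoneme genes, Dnali1, 1110017D15Rik, Pifo, Tekt1 and Spag6l, and of the regulators Ccno, kept adjusted p under 0.05 in all 12 fits that each left out 1 array. The count of axoneme genes past the threshold was lowest, at 5, without control replicate 4 or double mutant replicate 3 or 4. Without both bright control arrays it was 0, with Dnali1 and 1110017D15Rik at adjusted p = 0.052 and changes of 1.51 and 1.39, and the list's median was 0.46. Over all alternatives the median ran from 0.20, without background correction, to 0.54.

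**Figure D2:**
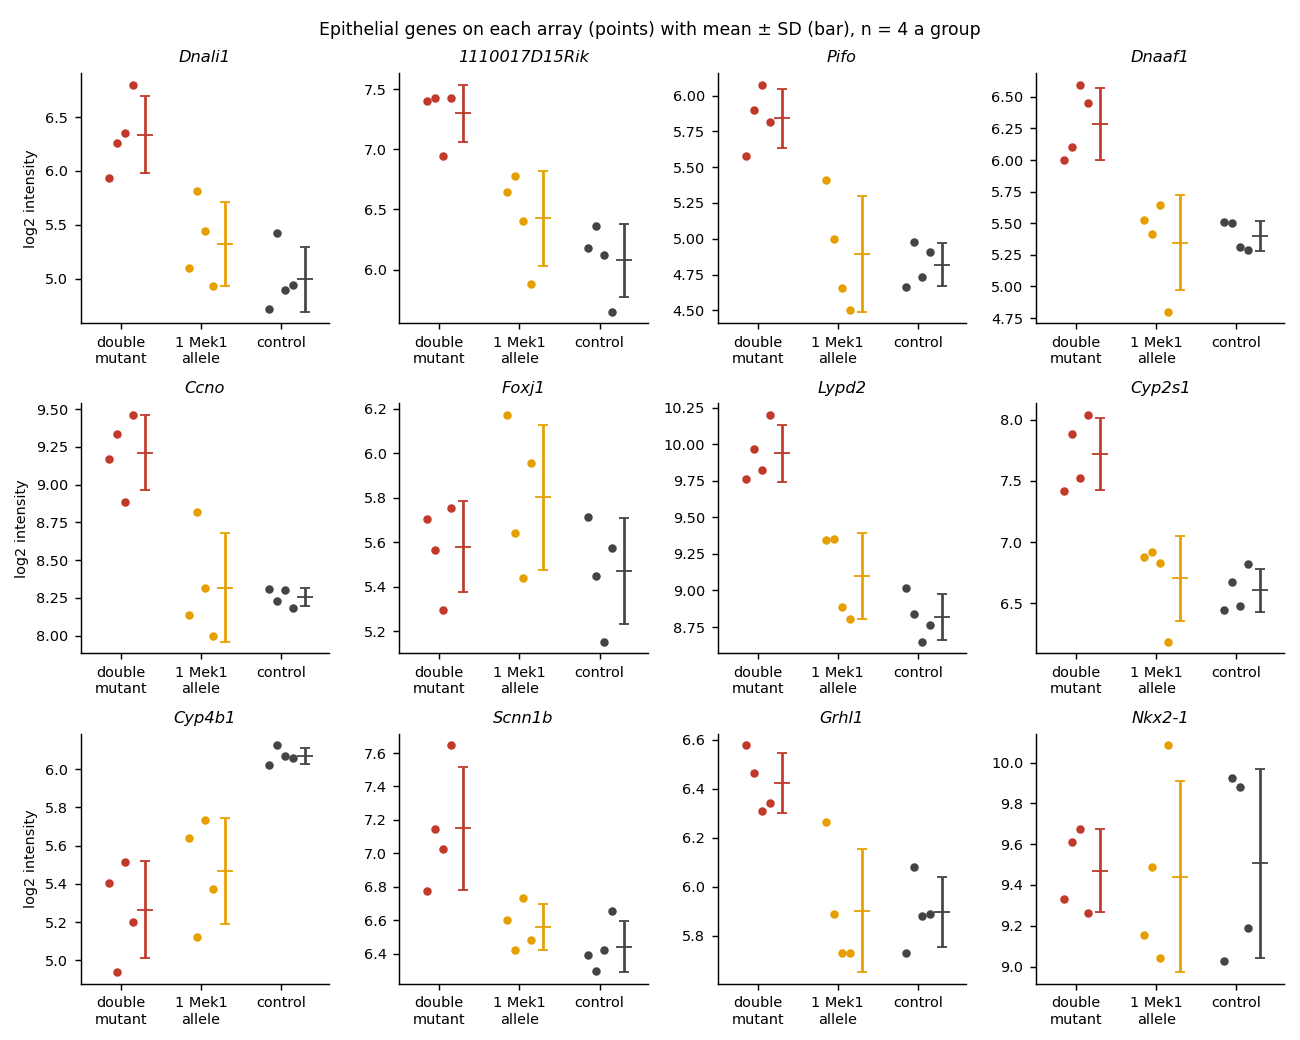
Log2 intensity (y axis) of 12 epithelial genes on each array (points), with the mean and SD as a bar, for double mutants, 1 Mek1 allele and controls (n = 4 each). Dnali1, 1110017D15Rik, Pifo, Dnaaf1, Ccno, Lypd2, Cyp2s1, Scnn1b and Grhl1 are higher in double mutants than on every control array, Cyp4b1 is lower, and Foxj1 and Nkx2-1 overlap.

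Stretches of the promoters of the axoneme and multiciliated genes are shown because they hold the core letters bound by RFX factors, which control ciliary genes. The letters searched were GTTGCC on both strands, printed in capitals (GGCAAC is the other strand). RefSeq windows (GRCm38.p6) of 250 bases before to 50 after each start were searched, and 100 bases of each are printed on the gene's strand.
1110017D15Rik, chr4:41507765-41507864, minus strand, positions -100 to -1: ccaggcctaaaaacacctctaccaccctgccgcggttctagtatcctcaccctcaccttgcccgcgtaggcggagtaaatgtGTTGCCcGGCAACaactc
Pifo, chr3:106001498-106001597, minus strand, positions -100 to -1: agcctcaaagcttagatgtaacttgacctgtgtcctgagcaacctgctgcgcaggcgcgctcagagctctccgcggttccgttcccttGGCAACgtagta
Tekt1, chr11:72361883-72361982, minus strand, positions -100 to -1: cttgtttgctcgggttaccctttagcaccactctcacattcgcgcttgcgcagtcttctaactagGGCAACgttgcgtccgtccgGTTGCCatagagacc
Ccno, chr13:112987552-112987651, plus strand, positions -250 to -151: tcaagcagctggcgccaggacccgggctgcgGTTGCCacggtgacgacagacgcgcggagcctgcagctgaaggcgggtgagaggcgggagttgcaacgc
Mcidas, chr13:112993618-112993717, plus strand, positions -250 to -151: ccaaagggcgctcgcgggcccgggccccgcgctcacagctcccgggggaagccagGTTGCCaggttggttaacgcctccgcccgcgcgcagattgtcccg

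The 1110017D15Rik stretch holds these letters at -18 and, on the other strand, at -11. Tekt1 holds 2, at -35 and -15, and Pifo 1, at -12. Ccno and Mcidas, both on the plus strand of chromosome 13, hold 1 each, at -219 and -195. The letters stood in at least 1 window of 10 of the 24 measured axoneme genes with a window (41.7%) and of 4 of the 7 past the threshold with one (57.1%), against 14.6% of all 6746 tested genes with a window. The windows of Dnali1, Dnaaf3 and Ccdc114 held none. A match is a description of letters and says nothing of a factor's binding.

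**Figure D3:**
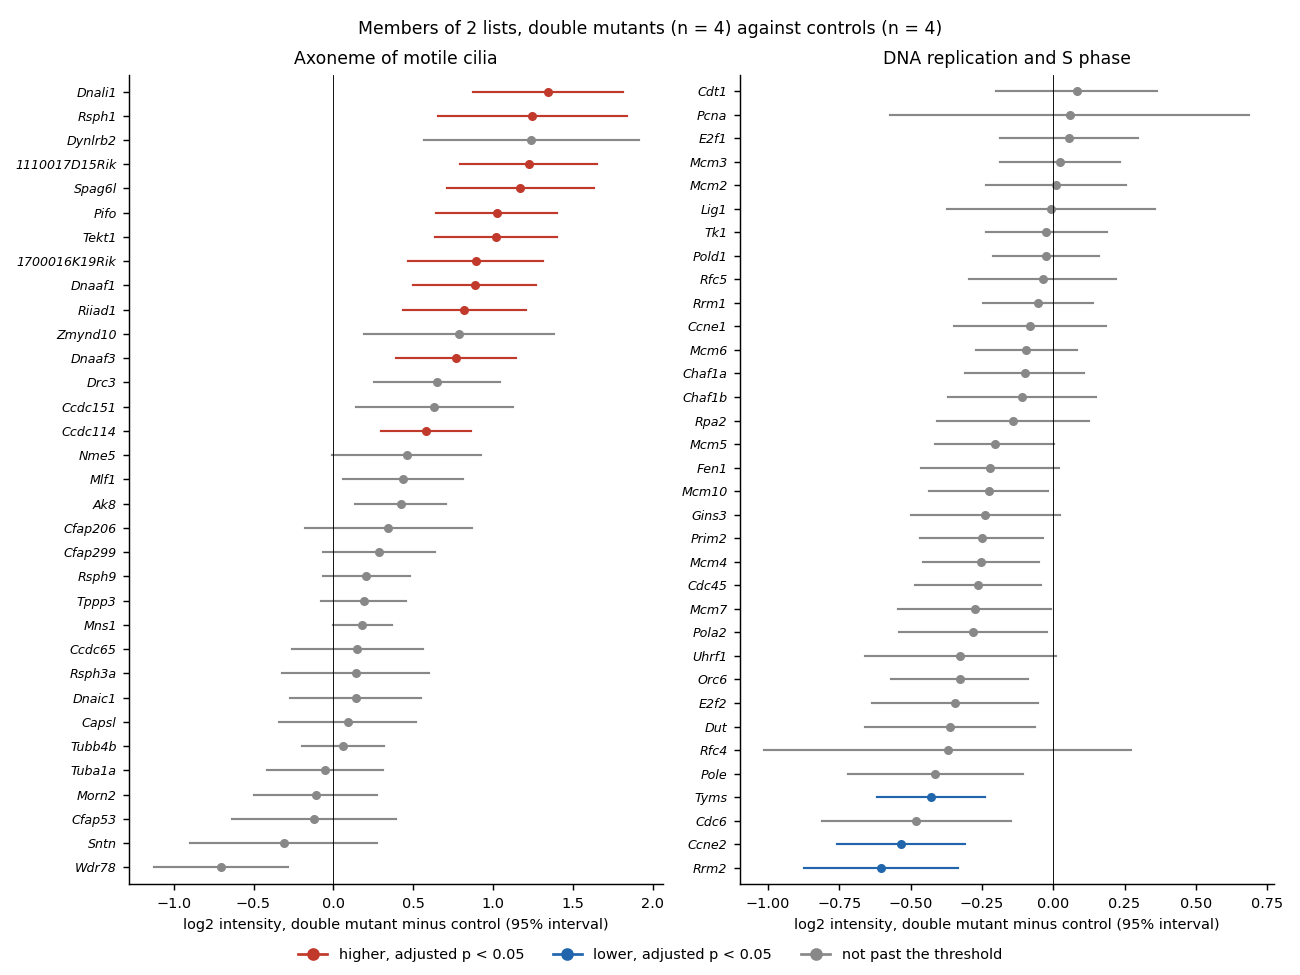
Change of each measured axoneme gene (left) and replication gene (right) with its 95% interval (x axis, log2 intensity, double mutant minus control). Of the axoneme genes 28 of 33 lie above 0, from -0.71 for Wdr78 to 1.34 for Dnali1, and of the replication genes 29 of 34 lie below 0, from -0.61 for Rrm2 to 0.08 for Cdt1.

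Club and secretory airway genes had the highest share of calls among lists with more than 10 measured genes: of 15, 6 rose and 1 fell (46.7%), with a median change of 0.39. The list lay between 0.34 and 0.46 on double mutant arrays, between -0.08 and 0.15 with 1 Mek1 allele, and between -0.12 and 0.06 on control arrays. Lypd2, a membrane-anchored protein of the LY6 family, measured 9.76, 9.97, 9.83 and 10.20 in double mutants, against 9.02, 8.84, 8.65 and 8.76 in controls (1.12 ± 0.15, adjusted p = 0.00244). Cyp2s1, a cytochrome P450, measured 7.42, 7.88, 7.52 and 8.04 in double mutants, against 6.44, 6.67, 6.48 and 6.82 in controls (1.11 ± 0.18, adjusted p = 0.00755). Neither gene's groups overlapped.

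Smaller rises were seen in the carboxylesterase Ces1d (0.60 ± 0.13) and the glutathione transferase Gsto1 (0.41 ± 0.09). The P450 gene Cyp4b1 went the other way, with 5.41, 4.94, 5.51 and 5.20 in double mutants, of which 1 of 4 was above background, against 6.02, 6.13, 6.07 and 6.06 in controls (-0.80 ± 0.15, adjusted p = 0.0112). Sox2, the transcription factor of proximal airway epithelium, changed by 0.58 (adjusted p = 0.0509). Scgb1a1, the secretoglobin that defines mature club cells, was above background on 2 of 4 double mutant and 1 of 4 control arrays and did not enter the test. Leaving out single arrays, Lypd2, Cyp2s1, Cyp2f2, Cbr2 and Cyp4b1 passed each time, and Ces1d and Gsto1 in 6 of 12 fits, Ces1d reaching adjusted p = 0.0865 without double mutant replicate 4 and Gsto1 0.0787 without control replicate 2. The count was 0 without both bright controls, where Lypd2 had adjusted p = 0.052.

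In the alveolar type 1 list, 2 of 14 measured genes rose and 12 had positive changes, with a median of 0.31. Its level lay between 0.21 and 0.53 in double mutants and between -0.13 and 0.09 in controls. Scnn1b, the beta subunit of the epithelial sodium channel, measured 6.77, 7.15, 7.03 and 7.65 in double mutants, against 6.39, 6.29, 6.42 and 6.66 in controls (0.71 ± 0.16, adjusted p = 0.0321). The groups did not overlap. The alpha and gamma subunits changed alike in size without passing: Scnn1a by 0.82 (adjusted p = 0.109) and Scnn1g by 0.53 (adjusted p = 0.0551). Genes typical of type 1 cells moved less, Pdpn by 0.04 (adjusted p = 0.847) and Ager by 0.38 (adjusted p = 0.217). Scnn1b passed in 6 of 12 single omissions and the tetraspan gene Emp2 (0.52) in 3, and both failed without control replicate 2, with adjusted p = 0.105 and 0.136.

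General epithelial genes had mostly positive changes. Of 29 measured, 2 rose, 23 had positive changes and the median was 0.17. The list level lay between 0.15 and 0.27 in double mutants, between -0.11 and 0.09 with 1 Mek1 allele, and between -0.02 and 0.08 in controls. Grhl1, a grainyhead-like factor of epithelia, measured 6.58, 6.47, 6.31 and 6.34 in double mutants, against 5.73, 6.08, 5.88 and 5.89 in controls (0.53 ± 0.13, adjusted p = 0.0446), but passed in only 3 of 12 single omissions. Cdh1, E-cadherin, and Nkx2-1, the lung epithelial regulator, changed by 0.10 and -0.04 with overlapping groups.

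In the distal tip and surfactant list 1 of 19 passed, Muc1 (0.57), with a median of 0.23. Double mutant values spread widely, from a list level of -0.01 to 0.32, against -0.14 to 0.11 in controls. Napsa, a protease that processes surfactant proteins, changed by 0.92 without overlap (8.80 to 9.28 in double mutants, 7.68 to 8.51 in controls, adjusted p = 0.0615), and further Napsa probes gave 0.79 and 0.94. Id2 and Sox9, factors of the distal tip, changed by -0.55 (adjusted p = 0.23) and -0.18 (adjusted p = 0.662). Of 9 measured basal airway genes 0 passed, and Krt5 and Trp63, which define basal cells, were above background on 0 of 8 of these arrays.

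Genes of DNA replication and S phase lay below controls. Of 34 measured, 3 fell (8.82%, against 3.02% of all genes), 0 rose and 29 had negative changes, with a median of -0.22. In double mutants 10 of 34 were lower without overlap, against 6.28% of all genes. The list lay between -0.26 and -0.13 on double mutant arrays, between -0.14 and -0.06 with 1 Mek1 allele, and between -0.03 and 0.04 on control arrays, so the double mutant and control arrays did not overlap. Rrm2, the small subunit of ribonucleotide reductase, measured 8.55, 8.74, 8.81 and 8.33 in double mutants, against 9.39, 9.12, 9.17 and 9.18 in controls (-0.61 ± 0.13). A second Rrm2 probe gave -0.20 ± 0.10. The replication licensing factor Cdc6 changed by -0.48 (adjusted p = 0.116, with a dim second probe at -0.01), and Mcm2, of the replicative helicase, by 0.01 (adjusted p = 0.978).

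The list's count was 0 without double mutant replicate 4, where Rrm2 had adjusted p = 0.0667, and 0 without both bright controls, and its median ran from -0.25 to -0.15 over all alternatives. An E2F site (TTGGCGC or TTCCCGC, both strands) stood in the windows of 16 of 30 measured replication genes with a window (53.3%), against 14.3% of all tested genes with one. The windows of Rrm2 and Tyms held none.

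Mitosis genes gave a median change of -0.14, with 16 of 20 below 0 and 1 past the threshold. Ncapd2, a subunit of condensin, which compacts chromosomes, measured 9.63, 9.85, 9.93 and 9.70 in double mutants, against 10.60, 10.48, 10.78 and 10.30 in controls (-0.77 ± 0.13, adjusted p = 0.00755). The groups did not overlap. Ncapd2 gave -0.66 and -0.72 on further probes and passed in all 12 single omissions. With 1 Mek1 allele its change was -0.69. The kinetochore gene Ndc80 changed by -0.35 (adjusted p = 0.0582). The promoter of Ncapd2 is shown for the letters TTTGAA (capitals, at -123), the cell cycle homology region of many mitosis genes:
Ncapd2, chr6:125191637-125191736, minus strand, positions -150 to -51: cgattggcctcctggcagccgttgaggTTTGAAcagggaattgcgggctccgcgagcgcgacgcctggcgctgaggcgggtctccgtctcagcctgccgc

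These letters, on either strand, stood in windows of 13 of 17 measured mitosis genes with a window (76.5%), against 13.7% of all tested genes with one. Outside the lists, Pclaf, a factor bound to the replication clamp PCNA, measured 7.31, 7.41, 7.56 and 7.43 in double mutants, against 8.25, 8.37, 8.34 and 7.75 in controls (-0.75 ± 0.18, adjusted p = 0.0455), and passed in 4 of 12 single omissions. All double mutant values lay below all controls.

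The next 5 genes were picked out because they fell, after their values were seen, and their direction supports nothing. They were Pole4 (-0.66), an accessory subunit of DNA polymerase epsilon, Esco2 (-0.64), the cohesin acetyltransferase, Sgo1 (-0.41), which protects centromeric cohesion, Shcbp1 (-0.46) and Haus6 (-0.54), of the augmin complex of the spindle. Pole4, for one, averaged 6.76 ± 0.20 in double mutants and 7.42 ± 0.12 in controls (SD, n = 4 each), with no overlap. Each of the 5 lost the threshold in at least 4 of 12 single omissions, with adjusted p of at most 0.148, for Haus6 without control replicate 2.

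**Figure D4:**
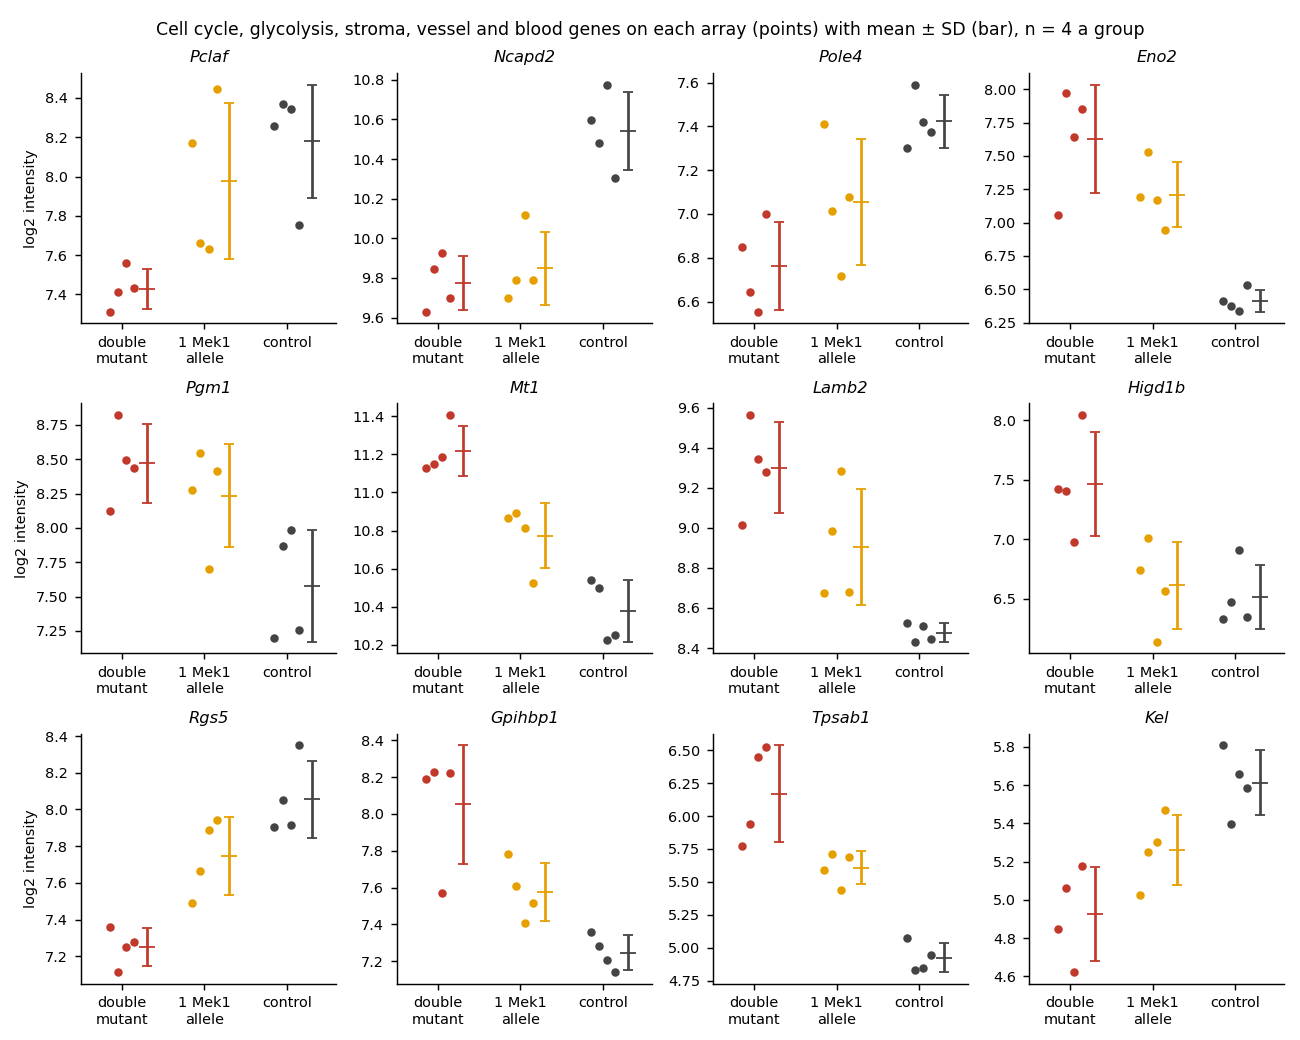
Log2 intensity (y axis) of 12 genes of the cell cycle, glycolysis, stroma, vessels and blood on each array (points), with the mean and SD as a bar, for double mutants, 1 Mek1 allele and controls (n = 4 each). In each panel the 4 double mutant points lie wholly above or wholly below the 4 control points, as in Ncapd2, with 9.63 to 9.93 in double mutants and 10.30 to 10.78 in controls.

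Brakes of the cell cycle and p53 targets included a few rises. Gadd45b, a stress-induced growth arrest gene, measured 7.64, 8.05, 8.07 and 7.98 in double mutants, against 7.04, 7.34, 7.16 and 7.24 in controls (0.74 ± 0.15, adjusted p = 0.0175). Tob2, an antiproliferative gene, ran from 7.21 to 7.72 in double mutants and from 6.94 to 7.03 in controls (0.56 ± 0.12, adjusted p = 0.0285). In all, 4 of 19 p53 targets rose (21.1%, against 3.02% of all genes passing): Cdkn1a, Dcxr, Gadd45b and Bbc3. Positive changes were seen in 12 of 19 and the median was 0.08, against -0.0036 over all genes. Cdkn1a passed in all 12 single omissions, Dcxr in 9, Gadd45b in 8 and Bbc3 in 5. The count of p53 targets was 1 without control replicate 3 or double mutant replicate 4. It was 0 without both bright controls and 0 with array brightness as a covariate. The list's median ran from -0.04, without control replicate 1, to 0.15 over all alternatives. Tob2 passed in 5 of 12 single omissions and had adjusted p = 0.0917 without double mutant replicate 4.

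Of 39 measured histone genes that are made in S phase, 5 rose and 1 fell (15.4%, against 3.02% of all genes). The median was 0.07. H2bc7 measured 10.49, 10.35, 10.15 and 10.19 in double mutants, against 9.85, 9.56, 9.46 and 9.77 in controls (0.63 ± 0.11, adjusted p = 0.0109). H3c7 (0.99), H2bc9 (0.58) and H2bc11 (0.48) rose as well, and H2bc6 had a change of -0.80, with 1 of 4 double mutant arrays above background. With 1 Mek1 allele the list lay at 0.27 to 0.35, against -0.04 to 0.23 in double mutants and -0.04 to 0.05 in controls. Histone genes are near-identical copies and a probe may report several of them. The count was 3 without control replicate 2 or 3 or double mutant replicate 1, 2 or 3.

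Glycolysis genes had mostly positive changes, and 2 of 19 rose (10.5%, against 3.02% of all genes passing). The change was positive in 18 of 19 and the median was 0.31, or 0.13 without background correction. The level lay between 0.13 and 0.36 in double mutants, between 0.0017 and 0.12 with 1 Mek1 allele, and between -0.12 and 0.11 in controls. Eno2, the neuron-type enolase, measured 7.06, 7.97, 7.64 and 7.85 in double mutants, against 6.41, 6.38, 6.34 and 6.53 in controls (1.22 ± 0.18, adjusted p = 0.00406), and passed in all 12 single omissions. Pgm1, phosphoglucomutase, ran from 8.12 to 8.82 in double mutants and from 7.20 to 7.99 in controls (0.89 ± 0.22, adjusted p = 0.0494). It passed in 3 of 12 single omissions, and without control replicate 4 the change was 0.78 (adjusted p = 0.128). Both genes were also higher with 1 Mek1 allele, by 0.80 and 0.66. Aldoa and Ldha, an aldolase and the lactate dehydrogenase, changed by 0.52 (adjusted p = 0.188) and 0.34 (adjusted p = 0.17), and Gapdh by 0.04.

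Of 28 hypoxia response genes 1 passed, Ddit4, with a median of 0.18, and Slc2a1, the main glucose transporter, changed by 0.16. Of 55 measured respiratory chain genes 0 passed, and the median was -0.02. Genes of complex I assembly had negative changes in 13 of 14, with a median of -0.15, but only Timmdc1 passed. Clock genes had a median of 0.25, or 0.11 without background correction, 11 of 14 being positive and 0 passing. The clock repressor Nfil3 was the highest at 0.54, with 9.23 to 9.42 in double mutants and 8.67 to 8.98 in controls (adjusted p = 0.0557).

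Detoxification genes gave 7 rises and 1 fall among 48 measured, of which Cbr2, Cyp2f2, Cyp2s1, Cyp4b1 and Gsto1 are also in the club cell list. Mt1, a metallothionein, measured 11.13, 11.15, 11.18 and 11.41 in double mutants, against 10.54, 10.50, 10.22 and 10.25 in controls (0.84 ± 0.12, adjusted p = 0.00313). Gpx3, the secreted glutathione peroxidase, measured 10.17, 10.46, 10.26 and 10.59 in double mutants, against 9.80, 9.72, 9.77 and 9.81 in controls (0.59 ± 0.10, adjusted p = 0.00917). Neither overlapped, and both passed in all 12 single omissions. With Ddit4, these are also the 3 of 17 measured glucocorticoid targets that rose, while Fkbp5 (-0.09) and Tsc22d3 (-0.13), which respond to glucocorticoids in many tissues, did not pass.

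Genes of protein folding had mostly negative changes. In the heat shock list 2 of 19 fell (10.5%, against 3.02% of all genes passing), 14 had negative changes and the median was -0.10. Hsph1, a cochaperone of HSP70, measured 9.20, 9.68, 9.89 and 9.35 in double mutants, against 9.91, 10.74, 10.51 and 10.28 in controls (-0.83 ± 0.18, adjusted p = 0.0247). Chordc1, a cochaperone of HSP90, ran from 10.18 to 10.35 in double mutants and from 10.59 to 10.88 in controls (-0.48 ± 0.10). Both lost the threshold without control replicate 2, the highest control for Hsph1, with adjusted p = 0.0818 and 0.0877.

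The unfolded protein response list had a median of -0.17, with 12 of 18 negative, and its 1 call was a rise. The list levels overlapped, from -0.22 to -0.07 in double mutants and from -0.23 to 0.12 in controls, and the median was -0.05 with array brightness as a covariate. Ero1b, an oxidase of the endoplasmic reticulum, measured 5.90, 6.61, 5.85 and 6.05 in double mutants, against 4.31, 4.74, 5.25 and 4.80 in controls, of which 1 of 4 was above background (1.33 ± 0.21, adjusted p = 0.00695). It was as high with 1 Mek1 allele (1.28), and kept an adjusted p of 0.0326 without both bright controls. Cebpb, a transcription factor induced by stress and inflammation, rose by 0.49 ± 0.11 (11.38 to 11.69 in double mutants, 10.92 to 11.11 in controls), but passed in 4 of 12 single omissions. Proteasome, lysosome, cholesterol synthesis and ribosome lists held 0 calls.

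In the lists of mesenchyme and matrix genes, where the Cre acts, 6 of 121 measured genes passed (4.96%, against 3.02% of all genes), 5 higher and 1 lower. Of 21 measured regulators of lung mesenchyme 0 passed, with a median of -0.01 and changes from -0.37 for Pdgfra to 0.44 for Tcf21. Foxf1 measured 8.24, 8.22, 8.23 and 8.32 in double mutants, against 8.34, 8.47, 8.42 and 8.34 in controls (-0.14 ± 0.13), and Tbx4 changed by 0.27 ± 0.14. The 95% interval was -0.43 to 0.15 for Foxf1 and -0.03 to 0.57 for Tbx4, so falls of more than 1.5-fold lay outside both. In the smooth muscle list 0 of 12 passed (median 0.05). Acta2, smooth muscle actin, was at 14.21 to 14.36 in double mutants and 14.40 to 14.49 in controls (-0.18 ± 0.08, adjusted p = 0.246), without overlap. Further Acta2 probes gave -0.16, -0.35 and -0.18. Collagens, elastic fibre and other matrix genes had 0 of 26 past the threshold and a median of 0.05, with Eln at 0.21 and Col1a1 at 0.04, and 0 of 6 measured cartilage genes passed.

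Pericyte genes split. Rgs5, a regulator of G protein signalling in pericytes, measured 7.36, 7.11, 7.25 and 7.28 in double mutants, against 7.90, 8.05, 7.91 and 8.35 in controls (-0.80 ± 0.13, adjusted p = 0.0074). Higd1b, another pericyte gene, measured 7.42, 7.41, 6.98 and 8.05 in double mutants, against 6.33, 6.47, 6.91 and 6.35 in controls (0.95 ± 0.23, adjusted p = 0.0389). Each gene's groups were apart, in opposite directions. Rgs5 passed in all 12 single omissions and Higd1b in 5, with adjusted p = 0.108 without control replicate 2. The other 7 measured pericyte genes did not pass, Abcc9 being at 0.64 (adjusted p = 0.106). Pdgfrb, which marks mural cells and fibroblasts and was not in the pericyte list, changed by -0.01.

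In basement membrane genes the call was Lamb2, the laminin beta 2 chain, 1 of 16. It measured 9.01, 9.56, 9.35 and 9.28 in double mutants, against 8.53, 8.43, 8.51 and 8.44 in controls (0.82 ± 0.14, adjusted p = 0.0101), and passed in all 12 single omissions. Mesothelial genes had 3 rises among 12 (Upk3b, Rspo1 and Krt19), a median of 0.13, and 0 calls without control replicate 3. The mesothelial factor Wt1 changed by 0.08.

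Vessel genes gave 3 rises among 33 measured (9.09%, against 3.02% of all genes passing), beside a median of -0.06. In 7 of the 12 single omissions the list gave 1 rise. Gpihbp1, which anchors lipoprotein lipase to the capillary wall, measured 8.19, 8.23, 7.57 and 8.22 in double mutants, against 7.36, 7.28, 7.21 and 7.14 in controls (0.80 ± 0.14, adjusted p = 0.011). Its partner Lpl, lipoprotein lipase, measured 9.61, 9.21, 9.33 and 9.60 in double mutants, against 9.81, 10.03, 9.79 and 9.91 in controls (-0.45 ± 0.11, adjusted p = 0.0484). The pair moved apart, with no overlap for either. Gpihbp1 passed in all 12 single omissions and Lpl in 1, the highest adjusted p for Lpl being 0.142 without control replicate 2.

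Vwf, von Willebrand factor, ran from 8.47 to 8.75 in double mutants and from 7.98 to 8.21 in controls (0.50 ± 0.12), passing in 4 of 12 single omissions. Tie1, an endothelial receptor kinase, rose by 0.34 ± 0.09 (adjusted p = 0.0497) and passed in 0 of 12 single omissions. Pan-endothelial genes did not pass, Pecam1 at 0.20 (adjusted p = 0.405) and Cdh5 at 0.04 (adjusted p = 0.911). In the lymphatic list the 3 calls were the near-identical Ccl21 genes, and Lyve1 changed by -0.29 (adjusted p = 0.457).

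Macrophage genes had positive changes in 17 of 19, with a median of 0.22 (0.11 without background correction). There were 3 rises (15.8%, against 3.02% of all genes passing). Lgmn, a lysosomal protease, measured 10.27, 10.24, 10.22 and 10.20 in double mutants, against 9.68, 9.69, 9.79 and 9.87 in controls (0.47 ± 0.09, adjusted p = 0.0143), and Csf2ra, a receptor chain for GM-CSF, ran from 7.95 to 8.23 in double mutants and from 7.57 to 7.71 in controls (0.41 ± 0.10). Lgmn passed in 11 of 12 single omissions and Csf2ra in 4, both failing without control replicate 2. The list level ran from -0.05 to 0.52 in double mutants, replicates 3 and 4 being the highest, and from -0.09 to 0.11 in controls, so the groups overlapped.

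Genes of MHC class II and complement had the highest median of lists with more than 10 measured genes, 0.51 (0.23 without background correction), with 12 of 14 positive. Their level ran from 0.23 to 0.75 in double mutants, from 0.04 to 0.32 with 1 Mek1 allele, and from -0.09 to 0.12 in controls. H2-Ab1, a chain of class II molecules, measured 6.71, 6.34, 7.15 and 7.10 in double mutants, against 6.16, 5.83, 6.32 and 5.75 in controls (0.81 ± 0.21, adjusted p = 0.0582). The complement inhibitor Cfi fell, at 7.63, 7.96, 7.93 and 7.64 in double mutants, against 8.45, 8.52, 8.40 and 8.19 in controls (-0.60 ± 0.14, adjusted p = 0.0388). Cfi passed in 5 of 12 single omissions. C1qc was the 1 rise of the list. Ptprc, the pan-leukocyte CD45, was above background on 0 of 8 arrays.

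Tpsab1, a tryptase of mast cells, was above background on 4 of 4 double mutant arrays, at 5.77, 5.94, 6.45 and 6.52, and on 0 of 4 control arrays (4.83 to 5.07). The rise was at least 1.79-fold (adjusted p = 0.00191). In the list of mast cell, granulocyte and platelet genes, which does not hold Tpsab1, 3 of 13 rose: Hdc, which makes histamine, Hp and Vwf. The mast cell proteases Cpa3 and Cma1 changed by 0.51 (adjusted p = 0.172) and 0.07 (adjusted p = 0.919) on their brightest probes. Second probes gave 1.25 ± 0.22 for Cpa3 and 0.64 ± 0.25 for Cma1, so the probes disagree.

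Red cell genes went both ways, with a median of -0.06 over 23. Of these, 3 fell and 0 rose past the threshold (13%, against 3.02% of all genes): Kel, Slc4a1 and Trim10. Slc4a1 and Trim10 passed in all 12 single omissions and Kel in 10. Among other alternatives, Kel did not pass without background correction, on the authors' log2 values or with a variance trend. Kel, the Kell blood group antigen, was above background on 0 of 4 double mutant arrays (4.62 to 5.18) and 4 of 4 control arrays (5.40 to 5.81), a fall of at least 1.18-fold (adjusted p = 0.0198). Embryonic globins had positive changes and adult beta globins negative ones, with 0 of the 5 past the threshold. Hba-x, the embryonic alpha-like zeta globin, measured 11.13, 10.65, 11.19 and 11.71 in double mutants, against 10.18, 10.29, 10.49 and 10.62 in controls (0.77 ± 0.20, adjusted p = 0.0539).

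Hbb-bh1 and Hbb-y, embryonic beta-like globins, changed by 1.06 and 0.55 (adjusted p = 0.0539 and 0.137). Hbb-bt, an adult beta globin, measured 5.90, 5.86, 6.01 and 5.53 in double mutants, against 6.39, 7.21, 7.02 and 6.16 in controls (-0.87 ± 0.23, adjusted p = 0.0607), and Hbb-b2 changed by -0.59 (adjusted p = 0.184). Control replicates 2 and 3, the bright arrays, held the highest adult values. Globin genes are close copies, and Hba-a1, the adult alpha globin, changed by 0.08.

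Signalling pathways that pattern the lung gave isolated calls. Among 15 measured genes of the FGF pathway, the receptor Fgfr3 measured 8.39, 8.42, 8.31 and 8.50 in double mutants, against 7.88, 7.55, 7.79 and 7.68 in controls (0.68 ± 0.13, adjusted p = 0.0141), where a dim second probe gave 0.21. The ligand Fgf1 ran from 8.12 to 8.52 in double mutants and from 7.82 to 7.95 in controls (0.47 ± 0.11). Both lost the threshold without control replicate 2. Fgf10, the mesenchymal ligand that drives branching, changed by -0.19 (9.04 to 9.33 in double mutants, 9.25 to 9.53 in controls, adjusted p = 0.313), and Fgf7 by -0.40 (adjusted p = 0.203).

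The Wnt receptor Fzd8 was above background on 4 of 4 double mutant arrays and 0 of 4 control arrays, a rise of at least 1.28-fold (adjusted p = 0.00755). Fzd8 did not pass without background correction, on the authors' log2 values, with a variance trend or without both bright controls. Its smallest change over the alternatives was 0.19. Axin2, a common Wnt target, changed by 0.12, and 2 of 30 Wnt genes passed. Changes in the list ran from -0.73 to 1.33, both for genes that did not pass. Numb, an inhibitor of Notch, had a change of 0.68 ± 0.15 on its brightest probe and of 0.16 and 0.09 on its other 2, so the probes disagree. Pdgfc, a PDGF ligand, was lower at 6.45, 6.98, 6.19 and 6.52 in double mutants, against 7.28, 7.22, 7.37 and 7.12 in controls (-0.72 ± 0.17, adjusted p = 0.0437), but passed in 3 of 12 single omissions.

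The guidance genes Sema5a (-0.49) and Epha7 (-0.73) fell, and other Epha7 probes gave -0.29 and -0.18. Without control replicate 2 they had adjusted p = 0.0787 and 0.0906. Of 35 BMP and TGF-beta genes, 9 Hedgehog genes, 15 Hox and other patterning genes and 17 IGF genes, 0 passed. Bmp4 changed by 0.13 and Shh by -0.09. Of 15 measured genes of the MAPK cascade 1 passed (6.67%, against 3.02% of all genes): Map2k6, lower without overlap. It passed in 7 of 12 single omissions, with a change of -1.33 and adjusted p = 0.0766 without double mutant replicate 4. Of 11 measured genes of ERK feedback and ETS output 0 passed, with a median of -0.09. Dusp6, a phosphatase of ERK, was at -0.08 ± 0.09 (its dimmer probes at -0.42 and 0.26). Among 15 measured immediate early genes, many of which ERK induces, Egr1 fell and Ier3 rose. Egr1, a zinc finger factor, measured 8.63, 8.64, 8.66 and 8.51 in double mutants, against 9.06, 9.49, 9.67 and 9.18 in controls (-0.74 ± 0.13, adjusted p = 0.0112). Ier3 ran from 9.52 to 9.84 in double mutants and from 8.58 to 9.10 in controls (0.92 ± 0.16, adjusted p = 0.00889). Both passed in all 12 single omissions, and the list's median was 0.04. Its changes ran from -0.74, for Egr1, to 1.31, for a gene that did not pass.

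Markers of tissues next to the lung were read beside these groups. Skeletal and cardiac muscle genes had 0 of 13 past the threshold, a median of 0.33, and a level of 0.21 to 0.38 in double mutants, -0.02 to 0.73 with 1 Mek1 allele and -0.17 to 0.27 in controls. Myh8, a developmental myosin, changed by 0.97 (adjusted p = 0.0582). Of 27 liver and plasma genes 4 were measured and 2 rose (Hp and Trf), while Alb and Afp, which define liver, were above background on 0 of 12 arrays. Of 34 nerve and glia genes 7 were measured and Map2, a neuronal microtubule protein, fell by 0.56 ± 0.11. The part of these tissues in the other changes was not tested, nor that of the Y-linked difference between arrays.

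**Figure D5:**
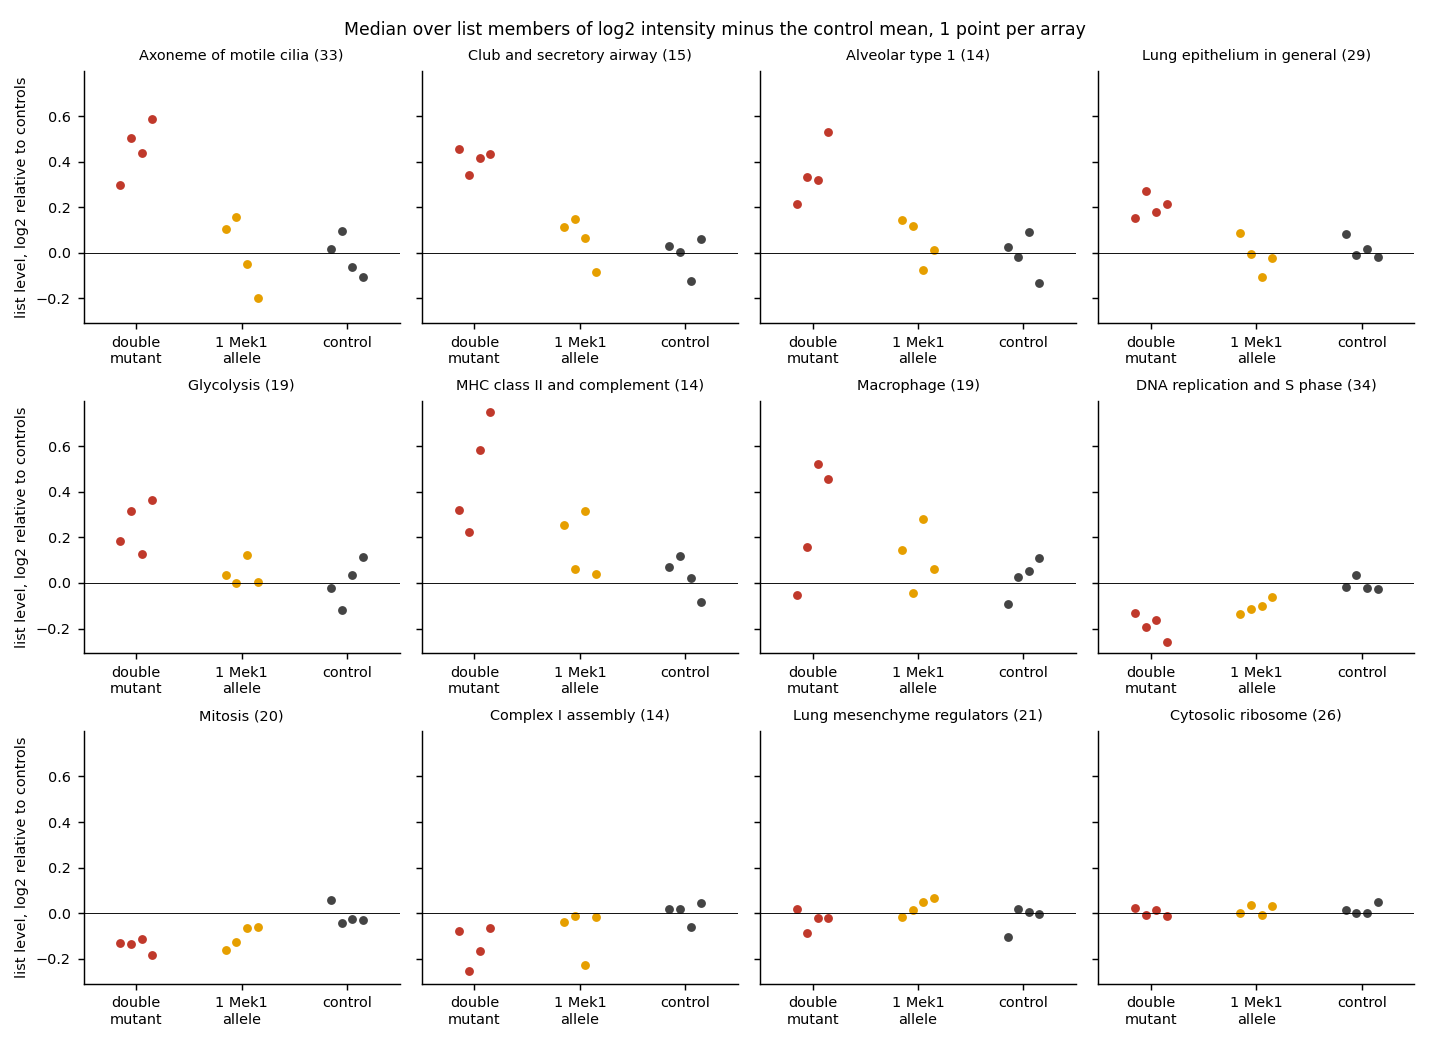
Level of 12 gene lists on each array (y axis: median over members of log2 intensity minus the control mean), for double mutants, 1 Mek1 allele and controls (4 points each, number of measured genes in brackets). Axoneme, club, alveolar type 1 and general epithelial lists are higher on all 4 double mutant arrays than on any control, replication and mitosis lists are lower, and mesenchyme regulators and ribosome genes lie near 0.

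Genes in no list made up 164 of the 251 calls. Setting aside the 10 largest changes each way, the next largest rise was Wfdc1, a secreted whey acidic protein gene, at 7.13, 7.01, 7.28 and 7.53 in double mutants and 5.97, 6.04, 5.89 and 5.97 in controls (1.27 ± 0.17, 2.41-fold, adjusted p = 0.0023). Ccz1, of vesicle trafficking to lysosomes, measured 10.08, 9.77, 10.15 and 10.12 in double mutants, against 8.42, 9.06, 9.04 and 8.68 in controls (1.23 ± 0.21, adjusted p = 0.00854). With 1 Mek1 allele Wfdc1 was at 0.31 and Ccz1 at 0.93. Foxp4, a forkhead factor present in lung epithelium, ran from 6.11 to 6.53 in double mutants and from 5.06 to 5.68 in controls (0.85 ± 0.18), passing in 8 of 12 single omissions.

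Other rises of this kind were Parp14 (0.98), Kndc1 (0.95), Tbc1d2 (0.87) and Hrc (0.85), a calcium-binding protein of the sarcoplasmic reticulum, and Erdr1 (0.97). Serpinb12, Gpr27 and Klk1b22 were above background on 0 of 4 control arrays with rises of at least 1.38-fold, 1.202-fold and 1.55-fold. Klk1b22 is 1 of a family of near-identical kallikrein genes.

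Among falls, Eml1, a microtubule-associated protein, measured 10.11, 9.94, 9.95 and 10.13 in double mutants, against 10.80, 10.86, 10.72 and 10.68 in controls (-0.73 ± 0.10, adjusted p = 0.00379), and passed in all 12 single omissions. Yme1l1, a protease of the inner mitochondrial membrane, was at 5.85 to 6.17 in double mutants and 6.74 to 7.41 in controls (-0.93 ± 0.17, adjusted p = 0.0109), and its second probe gave -1.03. Also lower were Abca9 (-0.87), Cldn34c1 (-0.87), Usp37 (-0.80), Srp54a (-0.79), Vamp7 (-0.76), Kctd12 (-0.74) and Fgfr1op2 (-0.72). Mtus2 was above background on 0 of 4 double mutant arrays and at least 1.196-fold lower there. Mtus2 did not pass without background correction, on the authors' log2 values or without both bright controls. Further Abca9 probes gave -0.37 and -0.28. Usp37 and Vamp7 passed in 6 and 4 of 12 single omissions, with adjusted p = 0.126 and 0.135 without control replicate 2.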

How the data were processed

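RNA from 12 whole-lung specimens at E15.5, each a single lung or a pool, was hybridised to Illumina bead arrays, 4 per genotype. The deposited table held 1 linear intensity per probe and array, not normalized between arrays, and per the file headers a detection p-value beside each. The authors also deposited normalized log2 values, which served as an alternative. Neither the labels nor the file headers name the software or the normalization method. Columns were matched to samples through the labels.

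Intensities were background-corrected with limma 3.58.1 (R 4.3.3; nec, using the detection p-values, offset 16) and quantile-normalized on the log2 scale. One linear model with 3 genotype means was fitted to all 12 arrays (lmFit and eBayes, 9 residual degrees of freedom) on probes with detection p under 0.01 on at least 4 arrays. The brightest probe stood for each gene, and p-values were adjusted over 8311 genes (Benjamini-Hochberg). Every adjusted p is from limma. The threshold was 0.05. With 4 arrays per group, their number limits the precision.

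The 69 lists, and which comparison to describe, were chosen with earlier results of these data known, so shares of lists are descriptions. Named genes were the targeted genes, in each list up to 4 calls ranked by p, 2 anchor genes and the highest and lowest change per list, and the 12 largest rises and falls of unlisted genes after the 10 largest each way were set aside. The 5 unlisted cell cycle genes from Pole4 to Haus6, and other list members such as Dnaaf1, Spag6l, Dynlrb2, Foxn4, Ces1d, Scnn1g, Cdc6, Aldoa, Cdh5, H2-Ab1 and the globins, were added after their values were seen, to describe their list. Leaving out each array, the 2 brightest arrays (control replicates 2 and 3) and other alternatives were tried. A variance prior from genes was chosen after seeing the data. RefSeq promoter windows were searched on both strands.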

Additional observations from a re-analysis of the deposited data

Results flagged for a closer look

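In 200 groups of 4 arrays, double mutant or control, for genes that the naming rule gives and that passed the threshold, 9 had 1 array far from the other 3 by Dixon's test of its gap against the group's range. Chance alone gives about 1 in 20 groups. Of these, 3 were in double mutant replicate 3. 1110017D15Rik measured 6.94 there, against 7.4 to 7.43 on the other double mutant arrays. Gpihbp1 measured 7.57 there, against 8.19 to 8.23. Ccl21c measured 6.91 there, against 6.15 to 6.25. Vldlr measured 10.1 in double mutant replicate 2, where the others lay between 9.97 and 10, and Erdr1 measured 10.5 in double mutant replicate 1, against 10.3 on the others. Ddit4 measured 9.13 in control replicate 2, against 8.98 to 8.99 on the other controls, and Yme1l1 measured 7.41 there, against 6.74 to 6.8. H2bc9 measured 8.46 in control replicate 3, against 8.86 to 8.92. Gpr27 measured 4.41 in control replicate 1, against 4.82 to 4.86.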

How the results depend on the processing

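The 251 genes past the threshold (158 higher, 93 lower) became 436 (257 higher, 179 lower) without background correction, 432 (259 and 173) on the authors' log2 values, 591 (353 and 238) with array weights and 407 (239 and 168) with a variance trend. They became 152 (101 and 51) with at least 1.5-fold, 159 (103 and 56) with the Y-linked signal as a covariate, 77 (51 and 26) with array brightness as a covariate and 10 (8 and 2) without the 2 brightest arrays, all 10 of them among the 251. Leaving out single arrays gave 109 to 287 genes, 76 to 183 higher and 33 to 104 lower, the lowest without control replicate 2. Deviations from the group means correlated weakly between double mutant and control arrays sharing a replicate number (0.0249, 0.0719, 0.16 and 0.178). These values cannot show whether the numbers pair the samples. With the replicate number as a block the count was 146 (99 higher, 47 lower), of which 134 were among the 251. Of 125 named genes past the threshold 58 stayed past the threshold under every single omission and 8 without the 2 brightest arrays. The sign changed for 0 under any alternative run, which omissions could hardly have altered, since the groups of nearly all calls did not overlap. The cause of the differing counts was not tested. Dim probes limit what can be read: the median SE was 0.187 over the 2078 dimmest genes, against 0.103 over the 2078 brightest.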

Other observations

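The share of calls differed between chromosomes. Genes lying close together, such as Ccno and Mcidas on chromosome 13, were counted singly, and so were near-identical copies such as histone genes. Chromosome 13 held 20 calls among 291 tested genes (6.87%), 15 higher and 5 lower in double mutants, chromosome 4 held 26 of 524 (4.96%) and chromosome 7 held 29 of 649 (4.47%), 26 of them higher and 3 lower. The X chromosome held 9 of 269 (3.35%), 1 higher and 8 lower, and chromosome 19 held 4 of 297 (1.35%). Over 8311 genes the share was 3.02%. These shares were not tested. With genes ranked by mean intensity and cut into 4 equal sets, 2.98% of the dimmest set passed, then 4.14%, 3.23% and, in the brightest set, 1.73%.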
